A study of Mus musculus with 2 samples.

Results

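The histone genes on the array were described in mouse splenic antigen-presenting cells (APCs) that met CD4+ T cells with or without the T cells' peptide. The genes were chosen by name, as every gene with a symbol of the linker or core histones (H1f, H2ac, H2bc, H3c, H4c, H2az, H2ax, H3f and their older names, without the H2- genes of the MHC), on probe sets that the platform annotation assigns to that gene alone. The rule gave 18 genes of 18193 and 25 probe sets. Of the genes, 10 belong to the replication-dependent clusters and 8 are variant histones. Class was assigned by symbol alone, and whether each cluster gene depends on replication was not tested. No member encoded histone H4, because each H4 probe set on the array was assigned to several genes.

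The APCs came from the spleens of wild-type female C57BL/6 mice aged 10 weeks. Under both conditions they were cultured overnight with CD4+ T cells carrying the P25 T cell receptor, which recognises the mycobacterial peptide P25 on MHC class II. The P25-stimulated culture received the peptide and the non-stimulated culture received medium alone, and the APCs were then enriched. Total RNA of 3 independent experiments was mixed before hybridisation to 1 array per condition, so there was no spread between replicates, no test and no p-value. Every value below describes these 2 arrays.

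Replication-dependent histone genes supply the bulk of new nucleosomes during S phase. Their mRNAs end in a stem-loop in place of a poly(A) tail, and some of the genes also yield polyadenylated transcripts. Variant histone genes lie outside the clusters, are generally transcribed throughout the cell cycle and mostly give polyadenylated mRNA. The linker histone H1 binds where DNA enters and leaves the nucleosome, whereas H2A, H2B, H3 and H4 form its core. The RNA was labelled with One-Cycle reagents, which prime from oligo(dT), so a stem-loop mRNA without a tail is a poor template for them, and the signals of replication-dependent genes come from whatever transcripts such a primer can copy.

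The promoters of 4 members are shown as examples. The first 3 are of replication-dependent genes whose probe sets were lower with P25, and the last of the variant gene with the highest ratios. They are RefSeq windows of the GRCm38.p6 assembly, 250 bases before to 50 bases after the transcription start, written 5′ to 3′ on the strand of the gene. H1f2 lies at chr13:23738557-23738856 on the + strand, H1f4 at chr13:23622509-23622808 on the - strand, H3c4 at chr13:23575513-23575812 on the + strand and H2az1 at chr3:137864237-137864536 on the + strand. Capitals mark matches, on either strand, to the CCAAT box, to the TATA-like words TATAAA and TATATA (which can overlap), to the H1 box AAACACA and to the octamer ATTTGCAT of H2B promoters.
H1f2: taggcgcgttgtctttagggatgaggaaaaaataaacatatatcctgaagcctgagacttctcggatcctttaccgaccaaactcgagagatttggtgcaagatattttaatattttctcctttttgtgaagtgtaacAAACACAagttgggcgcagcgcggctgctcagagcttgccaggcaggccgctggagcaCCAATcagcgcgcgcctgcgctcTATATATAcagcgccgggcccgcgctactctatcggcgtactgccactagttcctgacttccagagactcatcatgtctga
H1f4: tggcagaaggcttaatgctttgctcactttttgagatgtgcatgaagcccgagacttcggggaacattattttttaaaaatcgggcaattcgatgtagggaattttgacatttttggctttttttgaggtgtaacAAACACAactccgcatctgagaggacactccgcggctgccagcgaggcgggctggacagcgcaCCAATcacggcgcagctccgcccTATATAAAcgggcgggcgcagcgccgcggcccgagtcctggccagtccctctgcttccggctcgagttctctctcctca
H3c4: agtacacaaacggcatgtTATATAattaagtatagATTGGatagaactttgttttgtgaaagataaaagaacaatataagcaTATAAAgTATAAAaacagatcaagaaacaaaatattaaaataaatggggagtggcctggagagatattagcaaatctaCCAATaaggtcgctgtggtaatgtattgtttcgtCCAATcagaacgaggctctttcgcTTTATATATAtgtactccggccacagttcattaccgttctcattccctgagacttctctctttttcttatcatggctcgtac
H2az1: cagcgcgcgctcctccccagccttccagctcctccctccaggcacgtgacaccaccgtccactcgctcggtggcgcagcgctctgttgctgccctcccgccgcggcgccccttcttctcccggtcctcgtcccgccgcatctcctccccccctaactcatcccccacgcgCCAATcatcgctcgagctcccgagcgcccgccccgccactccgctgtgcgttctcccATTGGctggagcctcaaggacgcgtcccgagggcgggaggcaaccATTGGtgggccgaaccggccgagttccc
RefSeq promoters were at hand for 15 of the 18 members, 8 of them replication-dependent and 7 variant. A CCAAT word stood in all 8 replication-dependent promoters and in 5 of 7 variant promoters, against 37.4% of 32851 promoter windows of the same length. TATATA stood in 5 of 8 replication-dependent promoters and in none of the 7 variant promoters, against 5.67% of all windows. TATAAA stood in 4 of 8 and 1 of 7, against 13.6%. AAACACA was present in the promoters of all 3 replication-dependent linker genes among the members, H1f2, H1f4 and H1f6. It was also in 1 variant promoter, that of H3f3a, against 7.18% of all windows. ATTTGCAT was present in H2bc18 and H3f3b, against 1.74%. A match describes letters in these windows and is no evidence that a factor binds there.

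Signals are the authors' MAS5 intensities, which have no absolute unit, and a ratio is always P25 over medium. Signals under 10.3, the 40th percentile over both arrays, were raised to that floor, and a probe set counts as measured where at least 1 array exceeded it. Of the 25 histone probe sets 21 were measured, 2 of them on 1 array only, for which the ratio is a bound. Core histone genes have near-identical copies, and 5 of the 25 probe sets carry the suffix _x_at or _s_at, by which the maker marks probe sets that may read more than 1 gene, so a value cannot be assigned to 1 copy with certainty. The log2 ratios of the 2 brightest probe sets of a gene, with both signals above the floor, differed with an SD of 0.58 over 5293 genes. This SD between paired probe sets describes their disagreement on the same arrays and does not measure error between arrays.

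Of the replication-dependent probe sets 11 exceeded the floor on both arrays, and all 11 were lower with P25, 7 of them at least 2-fold lower. Their median log2 ratio was -1.49, a level 2.81-fold lower with P25, and ranged from -2.74 to -0.51. Among all 24495 probe sets with both signals over the floor, 54.2% had a log2 ratio below 0, 8.57% were at least 2-fold lower and 8.72% past 2-fold on the higher side, and the median was -0.07. The 8 variant probe sets that did so went both ways, 4 above 0 and 4 below, with 1 at least 2-fold higher and 2 at least 2-fold lower and a median log2 ratio of 0.12. The medians of the replication-dependent and variant probe sets differed by -1.61 on the log2 scale. H2bc18 passed the floor with medium only and 1 H1f7 probe set with P25 only, so the direction of each was fixed by the filter. With these bounds counted in, the medians were -1.39 over 12 and 0.28 over 9 probe sets and differed by -1.67, against 8.37% of 29549 measured probe sets at least 2-fold lower, 8.39% at least 2-fold higher and a median of -0.05. Per gene, taking the brightest probe set, 5 of 8 measured replication-dependent genes and 2 of 7 measured variant genes were at least 2-fold lower, against 7.22% of 12897 measured genes, and no histone gene was at least 2-fold higher, against 9.43%. H2bc18 and H1f7 are among these genes, and neither was past 2-fold. At a threshold of 1.5-fold, 11 histone probe sets were lower, against 21.5% of all measured probe sets, and 3 were higher, against 18.9%. No measured member changed the sign of its ratio when the arrays were scaled to one median, to the spike-in controls or by loess. Only loess could have done so. The other scalings shift ratios above the floor by 1 constant, too small to reverse even the member ratio nearest 0 (H2az2, -0.25). In RNA of mixed cells, fewer cells that carry a transcript and less of it per cell cannot be told apart.

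**Figure D1:**
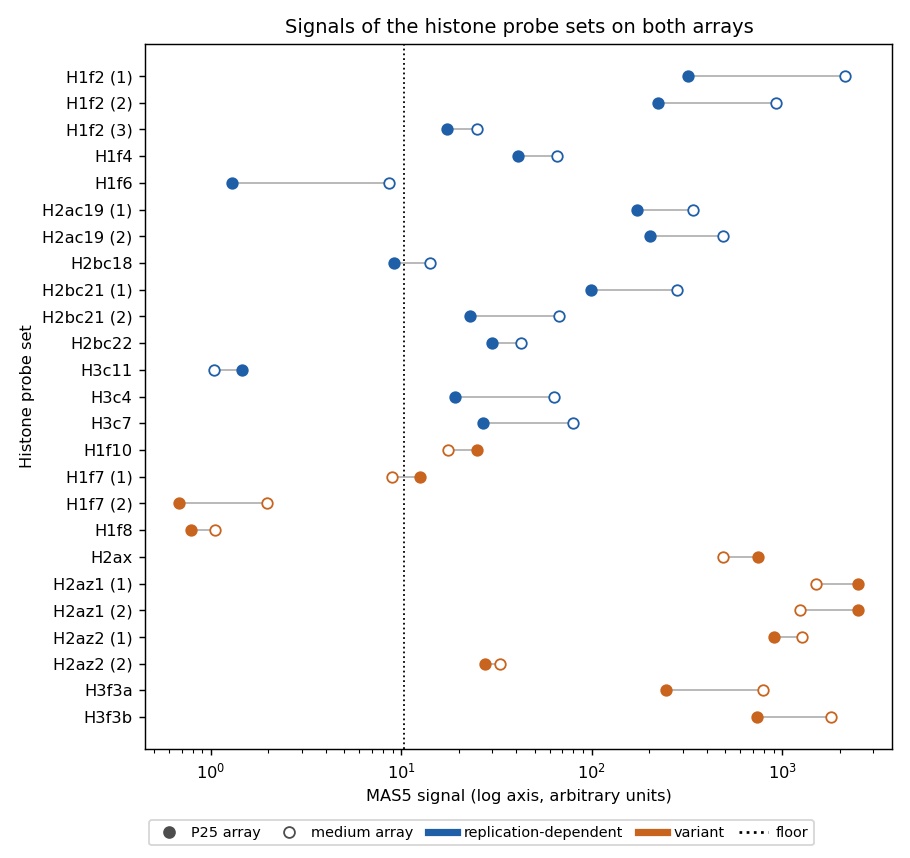
MAS5 signal (log axis) of each of the 25 histone probe sets on the P25 array (filled) and the medium array (open), coloured by class, with the floor of 10.3 as a dotted line; numbers in brackets tell probe sets of a gene apart. The 11 replication-dependent probe sets with both signals above the floor lie to the left with P25, whereas H2ax and both H2az1 probe sets lie to the right.

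The linker histone gene H1f2 (Hist1h1c), which encodes H1.2, had the lowest ratio of all members. Its brightest probe set (1416101_a_at) read 318.0 with P25 and 2128 with medium, 6.69-fold lower (log2 ratio -2.74). Of the 12428 measured probe sets with a mean signal of 100 or more, 1 had a lower ratio, and among the 12897 measured genes 4 did. The second probe set of the gene (1436994_a_at) read 223 against 921, 4.13-fold lower. The third (1438204_at) was dim, at 17.3 against 24.8, and was 1.43-fold lower. The 3 probe sets thus gave the same direction but spanned 2.23 on the log2 scale. The SD of 0.58 holds for pairs and does not measure such a range. H1f4 (Hist1h1e), which encodes H1.4, read 41.1 against 65.5, 1.59-fold lower. The testis linker gene H1f6, known as H1t, lay below the floor on both arrays (1.30 and 8.62).

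H2ac19 (Hist2h2aa2), a core H2A gene of the second histone cluster, was lower on both of its probe sets. The first (1418366_at) read 173 against 338, 1.95-fold lower and just inside 2-fold. The other (1418367_x_at) read 201 against 489, 2.43-fold lower and just outside it. These probe sets differed by 0.32 on the log2 scale, within the SD of 0.58 between paired probe sets.

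Among H2B genes, H2bc21 (Hist2h2be) was lower on both of its probe sets to nearly the same degree. The brighter one (1447854_s_at) read 98.9 with P25 and 278 with medium, 2.81-fold lower. The dimmer one (1455095_at) read 22.9 against 67.2, 2.93-fold lower. H2bc22 (Hist1h2bp) differed less, reading 29.9 against 42.5, 1.42-fold lower. H2bc18 (Hist2h2bb) exceeded the floor on the medium array only, reading 9.15 against 14.2, and so was at least 1.38-fold lower.

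Both measured replication-dependent H3 genes were about 3-fold lower with P25, though dim. H3c4 (Hist1h3d) read 19.2 against 63.0, 3.29-fold lower. H3c7 (Hist1h3f) read 26.9 against 79.5, 2.95-fold lower. The third, H3c11 (Hist1h3i), was below the floor on both arrays (1.45 and 1.04).

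Variant H2A genes went both ways. H2az1 (H2afz), which encodes H2A.Z, a variant placed at promoters and other regulatory sites, was higher on both probe sets. One (1438091_a_at) read 2514 with P25 and 1505 with medium, 1.67-fold higher. The other (1438092_x_at) read 2490 against 1235, 2.02-fold higher, the single histone probe set past 2-fold in this direction. H2ax (H2afx), whose protein is phosphorylated around DNA breaks, read 748 against 489, 1.53-fold higher. H2az2 (H2afv), which encodes the near-identical second form of H2A.Z, went the other way by a small amount. Its brighter probe set read 900.0 against 1266, 1.41-fold lower, and its dimmer one 27.6 against 32.8, 1.19-fold lower. The ratios of H2az1 and H2az2 therefore had opposite signs on all 4 of their probe sets.

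The variant linker genes were dim. H1f10 (H1fx), which encodes H1.X, read 24.8 against 17.6, 1.41-fold higher. The germ cell linker gene H1f7 (H1fnt) exceeded the floor on the P25 array only, on 1 probe set that read 12.5 against 8.88, so it was at least 1.22-fold higher. Its other probe set (0.681 and 1.98) and H1f8 (H1foo), the oocyte linker gene (0.783 and 1.04), lay below the floor on both arrays.

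The H3.3 genes were the variant members that stood with the replication-dependent genes. H3.3 is the H3 form deposited outside replication, at active genes among other places, and H3f3a and H3f3b encode the same protein. The probe set of H3f3a (1442087_at) read 244 with P25 and 792 with medium, 3.25-fold lower. That of H3f3b (1430357_at) read 734 against 1811, 2.47-fold lower. Another 5 probe sets, each assigned to 6 genes that include the H3.3 genes, gave a different picture. They were bright, with signals from 2534 to 6324 with P25 and from 3357 to 7316 with medium, and their log2 ratios ran from -0.55 to -0.04, all within 2-fold. The direction was the same on all 7 probe sets, but the size was not. Which part of the transcript each probe set reads was not analysed here, nor whether the brightest ones are near saturation. With arrays scaled by the median of measured probe sets or by the spike-in controls, the 2 least negative of these 5 came to log2 ratios between 0.10 and 0.15, above 0.

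In all, 24 probe sets were each assigned to several genes with at least 1 histone among them, the 5 of H3.3 included, and they can be read by family only. The 5 for cluster H3 genes included 4 that were at least 2-fold lower, against 8.37% of all measured probe sets, with log2 ratios from -1.59 to -1.02 (one of them, -1.24, a bound since its P25 signal lay below the floor), and 1 brighter probe set assigned to 12 genes that read 273 against 233 (0.23). Of 4 measured H2B probe sets 2 were at least 2-fold lower, led by one assigned to 3 genes at 112 against 470, 4.21-fold lower. Another H2B probe set exceeded the floor on the medium array only (3.03 against 13.4). The broadest H2B probe set, assigned to 11 genes, read 487 against 855, 1.75-fold lower. The H2A family split, with a dim probe set of 2 genes at 11.1 against 28.7, 2.58-fold lower, and a bright one of 10 genes at 6484 against 5707 (0.18). Of the H4 probe sets, all assigned to 13 genes, those with both signals above the floor had log2 ratios of 0.01 and 0.34. A dim one read 7.16 with P25, below the floor, and 18.5 with medium, and so was at least 1.80-fold lower, a bound that does not tell whether it passed 2-fold. The brightest H4 probe set read 362 against 360, a log2 ratio that came to -0.01 after loess. The 2 shared H2A.Z probe sets were higher with P25, at 4984 against 2828 (1.76-fold) and 1492 against 528 (2.82-fold). Of the 11 shared probe sets of replication-dependent families with both signals above the floor, 6 were at least 2-fold lower, against 8.57% of such probe sets on the array, and none was at least 2-fold higher, against 8.72%. Their median log2 ratio was -1.02, and it was -0.93 over 14 with the 3 bounds counted in. For cluster H2A, H3 and H4, the probe sets with the brightest signals were thus within 2-fold and slightly above 0, and the lower ratios came from dimmer ones.

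**Figure D2:**
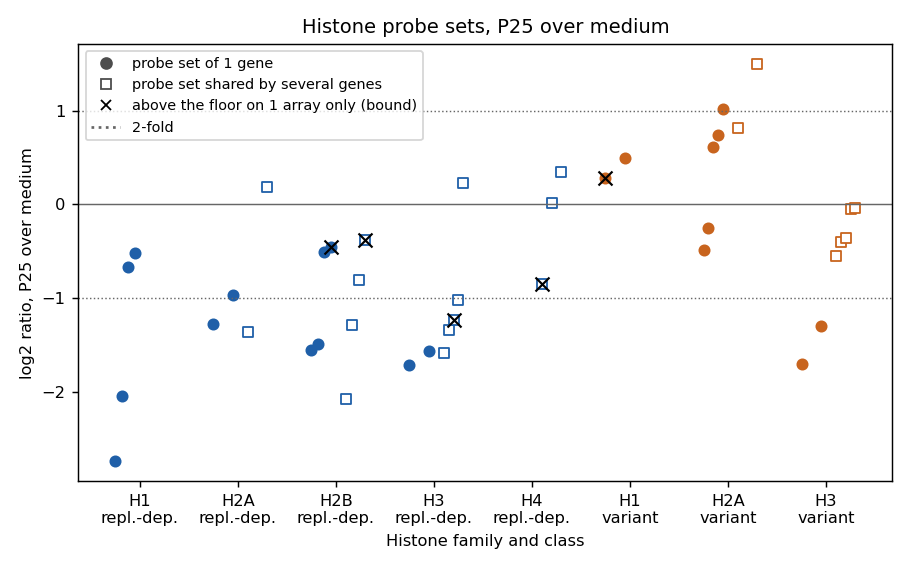
Log2 ratio of P25 over medium for each measured histone probe set by family and class, with probe sets of 1 gene as filled circles and probe sets shared by several genes as open squares; crosses mark probe sets above the floor on 1 array only, whose ratios are bounds, and dotted lines mark 2-fold. The 11 filled replication-dependent points without a cross lie below 0, while shared H2A, H3 and H4 probe sets reach up to 0.34 and the H3.3 squares lie above both filled H3 variant points.

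The classes differed in brightness. The geometric mean signal of both arrays had a median of 49.1 over the measured replication-dependent probe sets (from 12.1 to 823) and of 605 over the variant ones (from 11.4 to 1945). Among bright probe sets alone, with a mean signal of 100 or more, 4 of 5 replication-dependent ones were at least 2-fold lower, against 7.36% of all 12428 such probe sets, and their median log2 ratio was -1.49. These 5 probe sets belong to 3 genes, H1f2, H2ac19 and H2bc21. Of the 5 shared replication-dependent probe sets as bright, 1 was at least 2-fold lower, and their median log2 ratio was 0.01. Of the 6 bright variant probe sets 2 were at least 2-fold lower and 1 at least 2-fold higher, against 10.6% on the higher side, with a median of 0.06. Among dim probe sets, under 100, 3 of 7 replication-dependent ones were at least 2-fold lower, against 9.09% of 17121, and no dim histone probe set was at least 2-fold higher, against 6.8%.

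**Figure D3:**
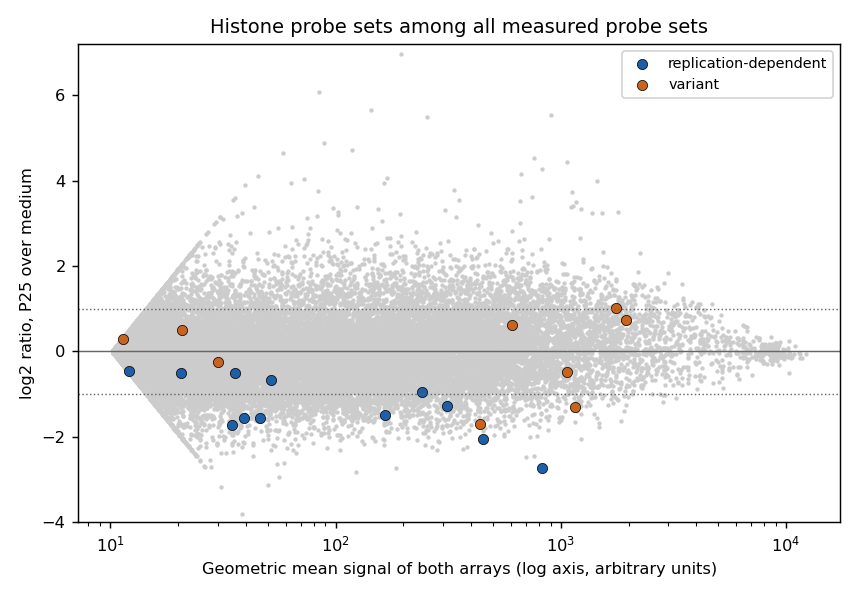
Log2 ratio of P25 over medium against the geometric mean signal of both arrays (log axis) for all 29549 measured probe sets (grey), with replication-dependent and variant histone probe sets in colour; dotted lines mark 2-fold. The brightest H1f2 probe set, at a mean signal of 823, lies at the lower edge of the grey cloud.

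By their brightest probe sets, the genes that regulate, process and carry histones were higher or within 2-fold. Of 47 such genes, in a list chosen for their roles, 44 were measured, 13 were at least 2-fold higher and none at least 2-fold lower, against 9.43% and 7.22% of all measured genes. Their median log2 ratio was 0.44, against 0.02 over all genes. Replication-coupled chaperones and importers led, where 7 of 12 measured genes passed 2-fold upward and the median gene was 2.28-fold higher. Hat1, which acetylates new H4, read 1106 against 377, 2.93-fold higher. Chaf1b, a subunit of the assembly factor CAF-1, read 204 against 72.3, 2.83-fold higher. Mcm2, a helicase subunit that also binds H3 and H4, was 2.81-fold and Ipo4, a histone importer, 2.75-fold higher. Supt16, a subunit of the FACT complex, and Tonsl had the lowest log2 ratios of this group, -0.03 and -0.15, which came above 0 (0.16 and 0.04) with spike-in scaling. Another Supt16 probe set had a log2 ratio of 0.77. Nasp and Mms22l were counted past 2-fold, but another probe set of each lay within it (0.20 and 0.93). Rbbp7 was counted within 2-fold, but another of its probe sets passed it (1.18).

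Genes of histone transcription and stem-loop 3′ processing had 2 of 16 members past 2-fold upward and none downward, near the 9.43% and 7.22% of all measured genes, and the median gene was 1.39-fold higher. Those past 2-fold were Lsm11, of the U7 snRNP that cleaves histone pre-mRNA, which read 95.7 against 37.0 (2.59-fold), and the cap-binding gene Ncbp2, which read 402 against 198 (2.03-fold). Another Lsm11 probe set had a log2 ratio of 0.61, within 2-fold. Npat, the coactivator of the histone clusters, was 1.79-fold higher, but its other probe sets reached down to a log2 ratio of -1.17. Casp8ap2 was 1.76-fold higher. Slbp, whose protein binds the stem-loop, read 1898 against 1122, 1.69-fold higher, with other probe sets down to -0.72. Cpsf2 (-0.17, and 0.02 with spike-in scaling) and Zfp473 (-0.33) were lowest. Replication-independent chaperones and exchange factors had 4 of 16 measured genes past 2-fold upward and none downward, and the median gene was 1.18-fold higher. These were the helicase genes Ruvbl2 (2.98-fold) and Ruvbl1 (2.77-fold), Set (2.16-fold) and Anp32e, a chaperone that removes H2A.Z (2.04-fold). Other probe sets of Set and Anp32e reached down to log2 ratios of 0.40 and 0.23, within 2-fold. The centromeric H3 gene Cenpa and the HIRA partner Ubn1 both had -0.60, and another Cenpa probe set had -1.02, past 2-fold on the lower side.

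Genes of S phase itself were higher with P25 on the same arrays. Upward of 2-fold were 25 of 29 measured genes, against 9.43% of all measured genes, none passed 2-fold downward, against 7.22%, and the median gene was 2.94-fold higher. Cdc6, which loads the replicative helicase, was 10.1-fold, Ccne2 (cyclin E2) 6.02-fold, Cdk1 4.46-fold and Cdc45 4.39-fold higher, though another Cdc45 probe set gave -0.05. The count takes the brightest probe set of each gene. Other probe sets of Rrm1 (0.15), Dut (0.78), Tyms (0.84) and Mcm5 (0.94), all counted past 2-fold, lay within it. Tyms was counted on a dim probe set, 78.1 against 19.5. Pold1 (0.33) and Cdt1 (-0.11, and 0.08 with spike-in scaling) were lowest. This list and the preceding one were drawn up with earlier results of these arrays known.

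**Figure D4:**
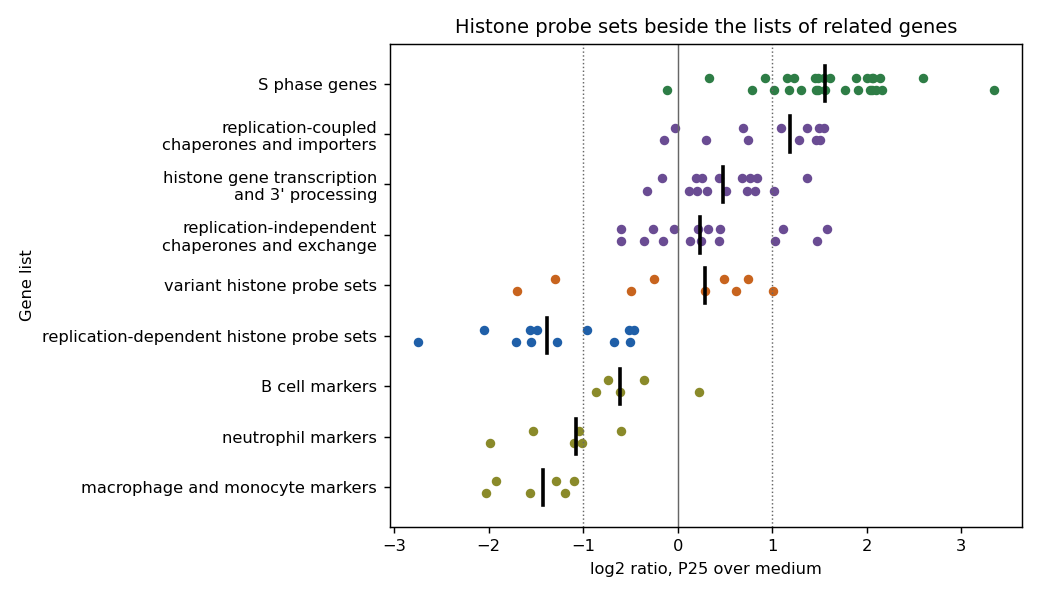
Log2 ratio of P25 over medium for each measured gene of the S phase list, the 3 parts of the histone supply list and 3 marker lists (brightest probe set per gene), beside the histone probe sets of both classes; black bars are medians and dotted lines mark 2-fold. The medians run from 1.55 for S phase genes to -1.39 for replication-dependent histone probe sets (1 of 12 a bound) and -1.43 for macrophage and monocyte markers (2 of 6 bounds).

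Markers of several cell types moved with the treatment as well. By brightest probe sets, the macrophage and monocyte list had all 6 measured genes past 2-fold on the lower side. With median and with spike-in scaling, Adgre1 came to log2 ratios of -0.96 and -0.91, within 2-fold. Its summed signal was 1319 with P25 and 3186 with medium, with C1qa below the floor on both arrays. C1qb and Ccr2 were above the floor with medium only, so the filter fixed their direction. Another Csf1r probe set had a log2 ratio of -0.86 and another Ccr2 probe set -0.13, both within 2-fold. For these lists too, 7.22% of all measured genes were at least 2-fold lower and 9.43% at least 2-fold higher. Of 6 neutrophil markers 5 were at least 2-fold lower (5968 against 10489). That count depended on the scaling. With median and with spike-in scaling, S100a9 (-0.87 and -0.83), Camp (-0.91 and -0.86) and Elane (-0.95 and -0.91) came within 2-fold. Mpo and Ltf stayed past it. Of 5 B cell markers none was past 2-fold and 4 were below 0 (19436 against 26604), though Cd79b came to -1.04 with loess. Dendritic cell markers had 1 of 4 measured genes at least 2-fold higher and none at least 2-fold lower (155 against 128, Xcr1 below the floor). The higher sum came from Zbtb46 (80.0 against 14.0), while Flt3 (-0.80), Itgax (-0.87) and Cd209a (-0.29) had log2 ratios below 0 and the list's median was -0.54. The erythroid markers were at or near the floor (21.8 against 17.8). The T cell genes Cd3e, Cd3d and Cd4 lay below the floor on both arrays, and 1 of 3 measured T cell markers, Cd2, was at least 2-fold lower (summed signal of the list 409 against 1187). That sum rests on Cd2 (339 against 1140), and whether its signal came from T cells was not tested. Cd3g (0.96) and Cd8a (0.37) had log2 ratios above 0. The part of these shifts in the histone ratios was not tested.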

How the data were processed

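Total RNA was purified with RNeasy columns, and biotin-labelled cRNA was made from 1 µg with One-Cycle reagents, per the labels' protocols. The deposited intensities are linear MAS5 signals, and MAS5 and GCOS are the tools that the submitters' processing notes name. The scaling target was not given in the sources used here, nor were detection calls and versions. MAS5 subtracts mismatch signal, which makes ratios of dim probe sets noisy.

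Of 45101 probe sets 64 are controls. Median signals of the others were 18.0 (P25) and 18.4 (medium), with 60.3% and 59.7% above the floor. The number of arrays limits the precision, and no batch information was used. Names came from the platform annotation, and all 25 histone probe sets matched an Entrez number in a RefSeq table of GRCm38.p6. For lists, a gene was represented by the probe set with the highest mean of log2 signals.

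Members, classes and lists were chosen with earlier results of these data known. All members are named. From the lists, the 4 highest and 2 lowest ratios of each part are named. Slbp was added after its value was seen. Rrm1, Dut, Tyms, Mcm5, Nasp, Mms22l and Rbbp7 are named because their probe sets disagreed about 2-fold. Of the list genes, 44 supply and 29 S phase genes are reported here. The calculation used Python 3.11.15, pandas 2.3.3 and statsmodels 0.14.6 (loess) and was tested on simulated data. Alternatives changed the floor (20th and 60th percentile), the scaling (median, spike-in, loess), the probe sets counted and the threshold (1.5-fold).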

Additional observations from a re-analysis of the deposited data

How the results depend on the processing

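Over the 21 measured histone probe sets and 5 alternatives of floor and scaling, 100 log2 ratios could be computed. None of those past 2-fold changed sign. Only loess could have changed such a sign, because a floor cannot reverse a ratio. The median and spike-in scalings shift ratios above the floor by 1 constant, too small to do so. Of the 100 log2 ratios, 98 stayed within 0.58 of their value, the SD between paired probe sets. The other 2 shrank with a floor at the 60th percentile, H2bc21 (1455095_at) to -0.80 and H3c4 to -0.71, since their P25 signals then lie below the floor. That floor brought the difference between the class medians from -1.67 to -1.06. Adding the 21 measured shared probe sets to the 21 of 1 gene, a choice made after seeing the data, brought it to -1.09. Then 16 probe sets were at least 2-fold lower and 2 at least 2-fold higher, against 8.37% and 8.39% of all measured probe sets. The variant median was then -0.04, a change of sign. The single probe set at least 2-fold higher became 0 with loess and 0 without the _x_at and _s_at probe sets, and 3 with a threshold of 1.5-fold. Scaling moved the median log2 ratio of all measured probe sets from -0.05 to 0.08 (one median) and 0.12 (spike-ins), and the share of 2-fold calls on the higher side from 50.1% to 65.5% and 69.6%. The replication-dependent median was -1.24 and -1.20 there. No paired analysis was possible because each condition has 1 array. With 1 array per condition no replicate could be left out. Dim probe sets limit the reading of single genes.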

Other observations

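Some histone genes carry platform names outside the rule, though their older names fit it. There were 6 such genes with 10 probe sets, and 4 genes with 7 probe sets were measured. H2aw (Hist3h2a), a replication-dependent H2A gene of the third cluster, read 157 with P25 and 321 with medium, 2.05-fold lower, on the brighter of its probe sets, and 50.4 against 88.1, 1.75-fold lower, on the other. Macroh2a1 (H2afy), which encodes the large variant macroH2A1, read 1554 against 1630 (log2 ratio -0.07). H2aj (H2afj) had log2 ratios of 0.30, -0.03 and -0.20 on its 3 probe sets, the first reading 865 against 703. Macroh2a3 was above the floor with P25 alone on 1 dim probe set, at least 1.15-fold higher. H2al2a and Macroh2a2 lay below the floor on both arrays. These genes were looked up after the member values were seen.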
